A study of Homo sapiens with 6 samples.

Results

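A set of 10 genes of 4 families of neuronal splicing regulators were followed from the stem cell to the neuron: PTBP1, PTBP2 and PTBP3, NOVA1 and NOVA2, RBFOX1, RBFOX2 and RBFOX3, and SRRM3 and SRRM4. They were chosen by name, as the rows of the gene count table whose Ensembl identifier maps to one of these symbols, and 10 of 61853 entries were found. RNA of H9, an established human embryonic stem cell line, was sequenced on day 0 and on day 30 of differentiation into arcuate neurons, the neurons of a hypothalamic nucleus that governs appetite, in 3 libraries per day. The series was set up to follow factors of ribosomal RNA processing, and the splicing regulators are read here from the same libraries.

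The day 0 group is H9 with no other label, and the protocol text, which all libraries share, grows H9 on Matrigel to confluence before differentiation starts. The day 30 group is labelled as differentiated H9 or arcuate neuron. It had received SHH, purmorphamine, SB431542 and LDN-193189 while the medium was shifted from KSR to N2, then B-27 with DAPT, replating with a ROCK inhibitor, and finally BDNF. No genetic change is stated for either group, all libraries come from this line, and no sorting of the neurons is stated. The labels do not say that the libraries of a day came from separate cultures, so p-values measure only the spread between these libraries, which may be technical.

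The proteins act on pre-mRNA by binding short motifs in or beside exons, and decide whether an exon is kept or skipped. PTBP1 is a repressor of neuronal exons in most cells that are not neurons, and PTBP2 is its paralog in the nervous system, whose own mRNA PTBP1 can push into decay by causing an exon to be skipped. NOVA and RBFOX proteins act as enhancers or silencers of exons according to where they bind, and SRRM3 and SRRM4 promote the inclusion of microexons, very short exons found mainly in neuronal mRNAs.

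Total counts ran from 7178453 to 8794008 on day 0 and from 5013643 to 12924842 on day 30. The summed level of 5 pluripotency markers was 2980 to 3520 CPM (read counts scaled to library size) on day 0 and 9.59 to 11.4 CPM on day 30, and that of 8 neuron markers was 185 to 222 and 6220 to 7860 CPM. The arcuate and hypothalamic markers summed to 0.984 to 1.89 CPM and 1420 to 2150 CPM, and 5 of their 7 genes were tested and rose, while NPY and AGRP were too low to be tested. The mesenchymal markers set 1 library apart. They summed to 210, 316 and 293 CPM on day 0 and to 170, 626 and 4340 CPM on day 30, the highest value being that of replicate 3. Epithelial markers went from 1040 to 1470 CPM to 153 to 191 CPM. Astroglial markers stood at 3.25 to 11.9 CPM and endothelial markers at 3.29 to 6.42 CPM on day 30. Neural progenitor markers summed to 1430 to 2300 CPM on day 0 and to 958 to 1160 CPM on day 30, mostly from NES and VIM. NES, SOX2 and HES1 were called lower, SOX2 going from a mean of 215 to 61.3 CPM and HES1 from 13.2 to 5.03 CPM. VIM did not pass, and PAX6 and HES5 were too low to be tested. As NES and VIM remained at means of 337 and 640 CPM, the day 30 libraries are called neurons here after their label only. The muscle markers summed to 7.26 to 10.8 CPM and 18.9 to 22.1 CPM, with MYOD1 and MYOG at 0 in every library and MYH7 at 0 on day 0 and at 17.5, 18.5 and 14.7 CPM on day 30.

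The start regions of 4 members are shown first, those of the SRRM genes, which rose together, and those of PTBP1 and PTBP3, which fell together. Each is a RefSeq promoter window of GRCh38.p14, 250 bases before to 50 bases after an annotated start, read 5′ to 3′ on the strand of the gene. The windows lie at chr7:76201646-76201945 on the plus strand for SRRM3, chr12:118981291-118981590 on the plus strand for SRRM4, chr19:797202-797501 on the plus strand for PTBP1 and chr9:112332977-112333276 on the minus strand for PTBP3. Their starts lie 4, 46, 24 and 0 bases from the start of the principal GENCODE transcript. Capitals mark matches to the right part of the REST binding element, GGACAGCG, or to an E-box, CAGATG, on either strand.
SRRM3: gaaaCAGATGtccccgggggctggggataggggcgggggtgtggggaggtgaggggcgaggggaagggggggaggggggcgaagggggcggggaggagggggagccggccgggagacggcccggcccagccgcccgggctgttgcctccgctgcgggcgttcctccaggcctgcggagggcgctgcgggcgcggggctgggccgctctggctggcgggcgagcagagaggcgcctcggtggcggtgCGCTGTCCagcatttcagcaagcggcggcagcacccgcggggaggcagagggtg
SRRM4: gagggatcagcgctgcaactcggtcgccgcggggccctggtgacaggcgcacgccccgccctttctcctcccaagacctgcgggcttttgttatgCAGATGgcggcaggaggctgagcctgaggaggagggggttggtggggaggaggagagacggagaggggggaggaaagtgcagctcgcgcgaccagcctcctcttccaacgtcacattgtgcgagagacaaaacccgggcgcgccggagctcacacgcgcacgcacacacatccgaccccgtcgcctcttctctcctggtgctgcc
PTBP1: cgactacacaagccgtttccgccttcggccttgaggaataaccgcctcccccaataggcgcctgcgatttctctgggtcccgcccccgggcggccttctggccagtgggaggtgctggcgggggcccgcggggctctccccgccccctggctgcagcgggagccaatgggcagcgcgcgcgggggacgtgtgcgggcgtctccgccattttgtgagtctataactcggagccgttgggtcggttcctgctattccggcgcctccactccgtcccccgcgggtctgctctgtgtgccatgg
PTBP3: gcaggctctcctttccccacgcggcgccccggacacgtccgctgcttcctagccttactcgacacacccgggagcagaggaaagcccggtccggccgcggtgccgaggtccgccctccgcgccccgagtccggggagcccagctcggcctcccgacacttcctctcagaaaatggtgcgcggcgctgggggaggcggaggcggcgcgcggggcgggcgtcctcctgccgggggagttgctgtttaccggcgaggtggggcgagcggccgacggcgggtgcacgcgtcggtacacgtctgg

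Of the 10 members, 9 had a RefSeq window, out of 35116 windows in all. The 4 printed windows held 30 CpG in SRRM3, 26 in SRRM4, 31 in PTBP1 and 42 in PTBP3. The median of all windows was 14 and the quartiles were 4 and 28, so SRRM4 lay within the quartiles and SRRM3, PTBP1 and PTBP3 above them. Of the windows not printed, NOVA1 held 31, NOVA2 30, PTBP2 11, RBFOX3 7 and RBFOX1 5. The starts of these windows lie, in this order, 514, 319, 855, 324338 and 95 bases from the start of the principal GENCODE transcript. The element part GGACAGCG was found in the SRRM3 window alone among the members, on the minus strand, starting 4 bases before the start site, and 1.63% of all windows hold it. The left part of the element, TTCAGCACC, which 0.376% of all windows hold, was found in 0 members. CAGATG lay 246 bases before the start of SRRM3 and 155 bases before that of SRRM4. It also occurred in the PTBP2 window, so 3 of 9 members held it, against 14.7% of all windows. Another E-box, CAGCTG, was found in the RBFOX1 and RBFOX3 windows, the latter 324338 bases from the start of the principal GENCODE transcript, and in 17.9% of all windows, and a further one, CACGTG, in 0 members and in 7.26% of all windows. These matches describe letters in a window and say nothing of binding.

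All 10 members passed the filter on low counts. By edgeR's quasi-likelihood test with Benjamini-Hochberg adjustment over 18040 genes, 7 rose, 2 fell and 1, RBFOX1, did not pass the threshold of 0.05. The background for these counts is high, since 76.6% of all tested genes were called, 39.8% higher and 36.8% lower. Changes of at least 2-fold were called upward in 6 members and downward in 2, where 29.7% and 24.7% of all genes were so called. The median log2 change of the members was 1.30, and that of all tested genes was 0.08, with quartiles of −0.99 and 1.33. The CPM ranges of the days did not overlap for 10 of 10 members, and for 79.5% of all genes, though RBFOX1 was separated by 0.03 CPM only. In bulk RNA, fewer cells of a type and less RNA per cell cannot be told apart.

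**Figure D1:**
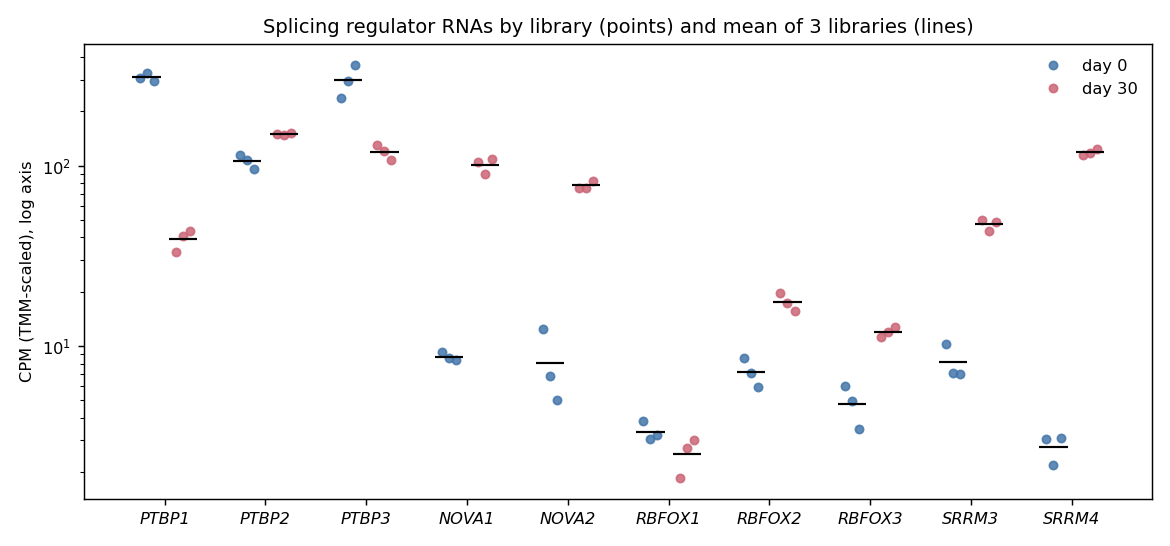
CPM (log axis) of the 10 members in each library, with points for the libraries of day 0 and day 30 and a bar for the mean of each day. SRRM4 moves from about the lowest member on day 0 to the level of PTBP2 and PTBP3 on day 30, while PTBP1 falls from 309 to 39.2 CPM.

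In the PTBP family, 2 members fell and 1 rose. PTBP1, the general repressor, stood at 307, 325 and 296 CPM in the stem cells (replicates 1 to 3) and at 33.2, 40.9 and 43.4 CPM in the neurons. Every neuronal library was thus far below every stem cell library. The mean went from 309 ± 14.8 to 39.2 ± 5.29 CPM (SD, n = 3), a 7.92-fold fall. The log2 change was −2.98 ± 0.13 (approximate SE, as for all log2 changes here), with an edgeR adjusted p of 8.27e-09. Of all tested genes, 7.06% had a lower log2 change. The day 30 values of PTBP1 had the same order as the mesenchymal marker sums of these libraries, as had those of NOVA2, SRRM4, RBFOX1 and RBFOX3. PTBP3 and RBFOX2 had the reverse order, and PTBP2, NOVA1 and SRRM3 had neither. A part of mesenchymal cells in these values was not tested. Without replicate 3 of day 30 the log2 change of PTBP1 was −3.04. The gene (ENSG00000011304.22) lies on chromosome 19 at 797075 to 812327 of hg38, on the plus strand, and shares 62 exon bases, 0.901% of its exon length, with the microRNA gene MIR4745. Its processed pseudogene PTBP1P held at most 1 count in a library.

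PTBP2, the neuronal paralog, was measured at 115, 107 and 96.3 CPM on day 0 and at 149, 148 and 152 CPM on day 30. It was already well expressed in the stem cells, and its rise was the smallest of the members called higher. The means were 106 ± 9.16 and 149 ± 2.09 CPM (SD, n = 3), which is 1.41-fold, with a log2 change of 0.50 ± 0.11 and an edgeR adjusted p of 0.00136. PTBP2 (ENSG00000117569.19) lies on chromosome 1 at 96721665 to 96823738, on the plus strand. Gene counts cannot separate its productive mRNA from the form with the skipped exon that is sent to decay.

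PTBP3, a paralog that is not limited to neurons, showed 238, 294 and 363 CPM on day 0 and 130, 120 and 108 CPM on day 30. The day 0 libraries were spread widely, but all were above those of day 30. The mean fell from 298 ± 63.0 to 119 ± 11.1 CPM (SD, n = 3), or 2.5-fold, with a log2 change of −1.32 ± 0.16 and an edgeR adjusted p of 1.8e-05. PTBP3 (ENSG00000119314.16) lies on chromosome 9 at 112217716 to 112333667, on the minus strand. Together the family went from 660 to 755 CPM on day 0 to 303 to 312 CPM on day 30.

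Within the family the make-up was compared per kilobase of exon, the scale on which levels of different genes can be set side by side. PTBP1 gave 54.2%, 51.8% and 45.4% of the family level in stem cells and 15.0%, 18.6% and 20.2% in neurons. PTBP2 took 10.8%, 9.1% and 7.9% on day 0 and 35.8%, 35.8% and 37.7% on day 30. The share of PTBP3 was 40.3% ± 5.9 and 45.6% ± 3.5 (SD, n = 3), with overlapping ranges. PTBP1 was thus the most abundant member in 2 stem cell libraries and PTBP3 in the other, and PTBP3 led in every neuronal library. With the principal transcript as length, PTBP1 led in every stem cell library, at 54.3% to 62.7%, and PTBP3 again in every neuronal one.

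The count ratio of PTBP2 to PTBP1 was 0.373, 0.329 and 0.326 on day 0 and 4.483, 3.614 and 3.503 on day 30. PTBP1 reads outnumbered those of PTBP2 in every stem cell library, and the reverse held in every neuronal library. The mean log2 ratio went from −1.55 ± 0.11 to 1.94 ± 0.19 (SD, n = 3), a difference of 3.49 or 11.2-fold. The exact 2-sided permutation p was 0.1, the smallest that 3 against 3 libraries allow, and 0.133 after adjustment over the 8 pairs of paralogs compared. PTBP3 gained 3.21-fold on PTBP1 and lost 3.5-fold to PTBP2, each also with an exact permutation p of 0.1.

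**Figure D2:**
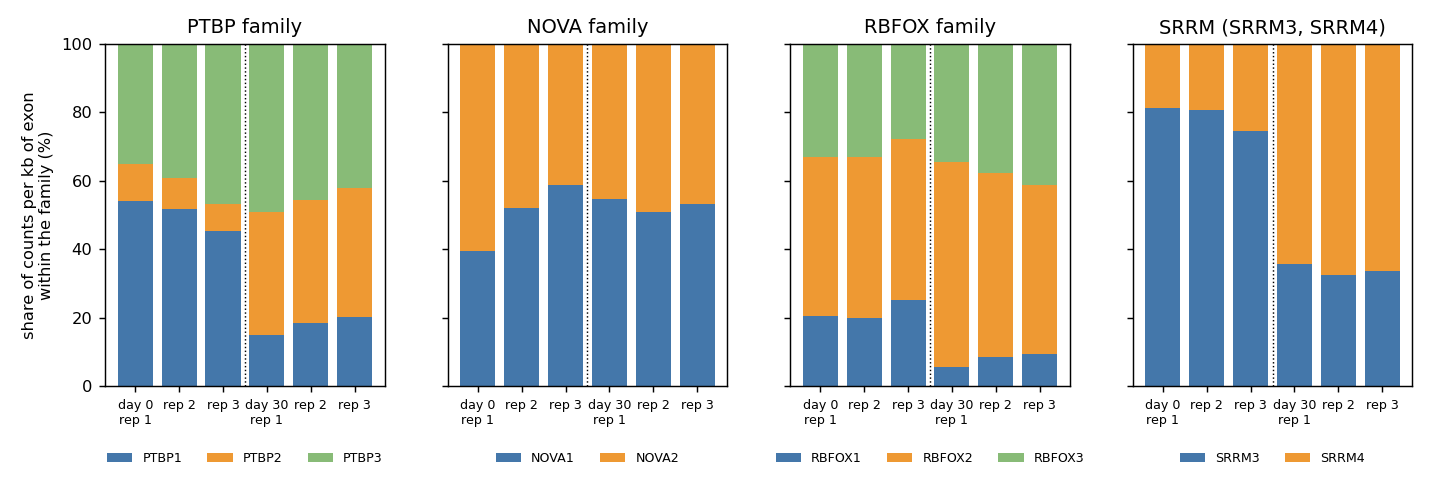
Share of each paralog in the level per kilobase of exon of its family (percent), for each of the 6 libraries. The PTBP1 part shrinks from 45.4% to 54.2% in the day 0 libraries to 15.0% to 20.2% in the day 30 libraries and the SRRM4 part grows from 18.7% to 25.4% to 64.2% to 67.6%, while NOVA1 averages 50.1% and 52.9%.

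Both microexon regulators rose, and SRRM4 had the largest log2 change of the 10 members. SRRM4, also known as nSR100, had 3.06, 2.18 and 3.08 CPM on day 0 and 115, 117 and 124 CPM on day 30. The stem cell libraries held 64 counts of it together and the neuronal ones 3322.5, with no overlap. The mean rose 42.3-fold from 2.77 ± 0.513 to 119 ± 4.9 CPM (SD, n = 3), with a log2 change of 5.40 ± 0.16 and an edgeR adjusted p of 1.14e-09, and 96.1% of tested genes had a lower log2 change. SRRM4 (ENSG00000139767.10) lies on chromosome 12 at 118981495 to 119163051, on the plus strand, and shares 25 exon bases with an antisense gene, AC084361.1, that had nearly no reads.

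SRRM3, its paralog with a similar action on microexons, stood at 10.3, 7.12 and 7.01 CPM on day 0 and at 49.8, 43.7 and 48.9 CPM on day 30. All neuronal libraries lay above all stem cell libraries. Its mean rose 5.79-fold from 8.15 ± 1.88 to 47.4 ± 3.32 CPM (SD, n = 3), a log2 change of 2.53 ± 0.17 with an edgeR adjusted p of 2.17e-07. The gene (ENSG00000177679.16) spans 76201900 to 76287288 of chromosome 7, on the plus strand. The pair shifted toward SRRM4, which gave 18.7%, 19.2% and 25.4% of their level per kilobase on day 0 and 64.2%, 67.6% and 66.3% on day 30. With the length of the principal transcript its share on day 30 was 49.6%, 53.3% and 52.0%, close to an even split. The count ratio of SRRM4 to SRRM3 rose 7.34-fold (exact permutation p = 0.1, the smallest possible).

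Both NOVA genes rose. NOVA1 was at 9.31, 8.57 and 8.37 CPM on day 0 and at 105, 90.3 and 109 CPM on day 30. The stem cell libraries were tightly grouped, and the neuronal ones were all higher. The mean rose 11.6-fold from 8.75 ± 0.494 to 102 ± 9.91 CPM (SD, n = 3), with a log2 change of 3.53 ± 0.14 and an edgeR adjusted p of 3.79e-09. NOVA1 (ENSG00000139910.20) lies on chromosome 14 at 26443093 to 26597754, on the minus strand. An annotated transcript inside one of its introns, AL079343.1, held 9, 8 and 13 counts on day 0 and 99, 101 and 68.5 counts on day 30, and shares no exon bases with it.

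NOVA2, the paralog best known from the cortex, showed 12.4, 6.83 and 5.04 CPM on day 0 and 75.4, 75.5 and 82.7 CPM on day 30. The first stem cell library was the highest of its day, but still far below the neuronal libraries. Its mean rose 9.6-fold from 8.08 ± 3.82 to 77.9 ± 4.15 CPM (SD, n = 3), with a log2 change of 3.26 ± 0.25 and an edgeR adjusted p of 6.02e-07. NOVA2 (ENSG00000104967.8) lies on chromosome 19 at 45933734 to 45973546, on the minus strand. The log2 ratio of NOVA2 to NOVA1 differed between the days by −0.16, within a spread of 0.58 (SD) on day 0 and 0.11 on day 30 (exact permutation p = 0.8). Such a p does not show that the genes rose equally.

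In the RBFOX family, 2 members rose and 1 did not pass. RBFOX2, the member expressed in many tissues, was at 8.54, 7.12 and 5.91 CPM on day 0 and at 19.7, 17.3 and 15.7 CPM on day 30. The neuronal libraries were all higher. Its mean rose 2.45-fold from 7.19 ± 1.32 to 17.5 ± 2.01 CPM (SD, n = 3), with a log2 change of 1.29 ± 0.19 and an edgeR adjusted p of 0.000106. RBFOX2 (ENSG00000100320.24) lies on chromosome 22 at 35738736 to 36028425, on the minus strand.

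RBFOX3 encodes NeuN, the antigen widely used to stain mature neurons. It was measured at 5.99, 4.94 and 3.45 CPM on day 0 and at 11.2, 11.9 and 12.8 CPM on day 30, that is, 109 and 334 counts over the libraries of each day. The days did not overlap. The mean rose 2.49-fold from 4.79 ± 1.28 to 12.0 ± 0.815 CPM (SD, n = 3), with a log2 change of 1.32 ± 0.23 and an edgeR adjusted p of 0.000373. Per kilobase of exon, 17.7% of the 14140 tested protein-coding genes lay below it on day 30. This rank depends on the length used. The level on day 30 was 1.21 CPM per kb of all exon bases and 3.9 CPM per kb of the principal transcript, for which no rank was computed. RBFOX3 (ENSG00000167281.20) lies on chromosome 17 at 79089345 to 79516148, on the minus strand.

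RBFOX1, a neuronal and muscle member, was at the edge of what these libraries can count. It held 30, 21 and 26 counts on day 0 and 18, 36 and 16 counts on day 30, or 3.82, 3.05 and 3.2 CPM and 1.85, 2.72 and 3.02 CPM. The days lay close together, and with scaling by total counts alone the ranges overlapped. The log2 change was −0.43 ± 0.30 with an approximate 95% interval of −1.02 to 0.16 and an edgeR adjusted p of 0.211. The gene (ENSG00000078328.23) spans 2473.5 kb of chromosome 16, from 5239802 to 7713338, on the plus strand. Per kilobase it gave 21.9% ± 2.9 of the family level in stem cells and 7.8% ± 2.0 in neurons (SD, n = 3), while RBFOX2 held 46.8% ± 0.3 and 54.4% ± 5.2 and RBFOX3 31.3% ± 3.0 and 37.8% ± 3.2. Relative to RBFOX1, the count ratios of RBFOX2 and RBFOX3 rose 3.31-fold and 3.45-fold (exact permutation p = 0.1 for each), and the log2 ratio of RBFOX3 to RBFOX2 differed by 0.06 (exact permutation p = 1).

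**Figure D3:**
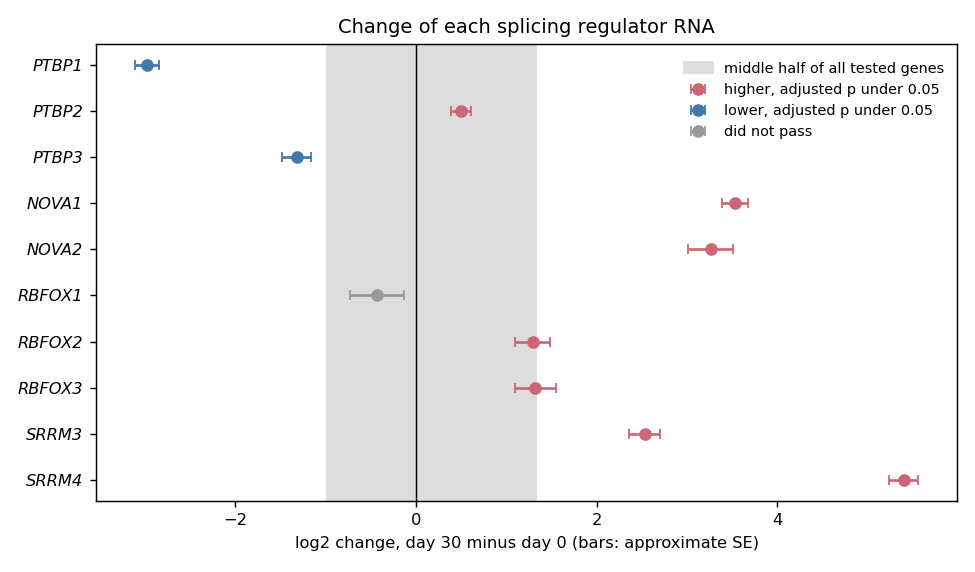
The log2 change of each member from day 0 to day 30 with its approximate SE, derived from the edgeR test, beside a band for the middle of all tested genes (−0.99 to 1.33). SRRM4, NOVA1, NOVA2 and SRRM3 lie above the band, PTBP1 and PTBP3 below it, and PTBP2 and the RBFOX genes within it.

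The order of the members depended on the length used. By level per kilobase of all annotated exon bases, the stem cells had PTBP1 at 44.9, PTBP3 at 36.2 and PTBP2 at 8.19 CPM per kb. PTBP1 and PTBP3 overlapped between libraries, and PTBP2 stood apart from both. The others followed at 1.19 or less, from SRRM3 through NOVA2, NOVA1, RBFOX2, RBFOX3 and RBFOX1 down to SRRM4 at 0.313, each overlapping its neighbour. In the neurons the order was PTBP3 at 14.5, SRRM4 at 13.4, PTBP2 at 11.6, NOVA1 at 10.1 and NOVA2 at 8.97 CPM per kb. Then came SRRM3 at 6.9, PTBP1 at 5.69, RBFOX2 at 1.75, RBFOX3 at 1.21 and RBFOX1 at 0.25. Only PTBP3 with SRRM4 and NOVA1 with NOVA2 overlapped as neighbours there. With principal transcript lengths, NOVA1 came first in the neurons at 15.4 CPM per kb, followed by PTBP3 at 14.9, SRRM4 at 13.5 to 14.7, SRRM3 at 13.1 and PTBP2 at 12.4, each overlapping its neighbour, and RBFOX3 at 3.9 passed RBFOX2 at 2.53. In the stem cells PTBP1, PTBP3 and PTBP2 kept the first places, RBFOX3 moved above NOVA1, RBFOX2 and NOVA2, and SRRM4 stayed last. Among tested protein-coding genes, by exon length, SRRM4 went from above 9.32% of them to above 82.2%, and PTBP1 from above 94.9% to above 54.7%.

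Most cofactors of these proteins fell, where 36.8% of all tested genes were called lower and 39.8% higher. Of 5 partners or relatives of PTBP proteins, 5 fell, with a median log2 change of −1.43. RAVER2, a corepressor that binds PTBP1, went from 44.8 ± 4.99 to 12.5 ± 1.35 CPM (SD, n = 3), with a log2 change of −1.85 ± 0.15 (edgeR adjusted p = 8.05e-07). Of 8 proteins of the LASR complex, in which RBFOX proteins act, 6 fell, 1 rose and 1 did not pass, with a median of −1.17. HNRNPC, which coats nascent RNA, had the largest fall at −1.80 ± 0.11, and the RNA helicase DDX5 was the one that rose, by 0.37 ± 0.10. The relatives and cofactors of the SRRM proteins all fell, 4 of 4, with a median of −0.85, the largest fall being that of SRRM1, a general splicing coactivator, at −1.31 ± 0.12. MATR3 is in both of the first lists, and its fall of −0.31 lost the call in some of the alternatives (edgeR adjusted p = 0.0198).

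Other splicing regulators of neurons, 14 genes of the ELAVL, CELF, MBNL and KHDRBS families, gave 12 that rose and 2 that fell, with a median log2 change of 3.33. Among all tested genes, 39.8% were called higher and 36.8% lower. CELF6 had 0.5 of a count over the day 0 libraries and 23.5 ± 0.341 CPM on day 30 (SD, n = 3), at least 180-fold higher against a floor of 3 counts over the day 0 group. KHDRBS1, a general RNA-binding protein known as SAM68, had the largest fall at −0.64 ± 0.10. MBNL1 and KHDRBS3 were called with edgeR adjusted p-values of 0.0375 and 0.0315 and lost the call without single libraries, KHDRBS3 also with DESeq2 (adjusted p = 0.101) and with no filter on low counts (0.148). Splicing regulators of epithelia and other tissues gave 7 of 10 that fell, 1 that rose and 2 that did not pass, with a median of −2.51. ESRP1, the epithelial splicing regulator, went from 143, 170 and 168 CPM to 0.823, 0.68 and 0.566 CPM, a log2 change of −7.80 ± 0.18 (edgeR adjusted p = 5.05e-10). The epithelial markers were lower on day 30 as well (153 to 191 CPM against 1040 to 1470 CPM), and their part in this was not tested. RBM24, known from muscle, rose by 3.08 ± 0.35, from 1.95 ± 1.17 to 16.4 ± 3.58 CPM (SD, n = 3).

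Upstream of the members lie REST, which represses neuronal genes, SRRM4 among them, in other cells, and miR-124, a neuronal microRNA that targets PTBP1 mRNA. REST fell from 168, 156 and 178 CPM to 11.5, 19.9 and 18.1 CPM, which is −3.34 ± 0.19 on the log2 scale (edgeR adjusted p = 4.69e-08). The days were far apart. The host gene MIR124-2HG rose from 0.421 ± 0.386 to 30.3 ± 5.78 CPM (SD, n = 3), a log2 change of 6.06 ± 0.36. Another host gene, MIR124-1HG, was already at 32.7 ± 11.2 CPM on day 0. It rose to 71.9 ± 4.46 CPM on day 30 (SD, n = 3), a log2 change of 1.13 ± 0.20. Of the 7 genes of this list 5 fell and 2 rose, with a median of −1.84, where 36.8% of all tested genes were called lower and 39.8% higher. Host gene counts are not microRNA levels.

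Genes with exons known to be set by these proteins were counted too, though gene counts cannot show which exons were used. The background for their calls was 39.8% higher and 36.8% lower over all tested genes. Of 10 genes with SRRM microexons, 8 rose and 2 fell (median 1.48). MEF2C, a transcription factor of neurons and muscle, rose by 6.21 ± 0.21, and EIF4G1, a translation initiation factor, fell by 1.13 on the log2 scale. Of 6 NOVA target genes, 4 rose and 2 did not pass (median 1.95). GLRA2, a glycine receptor subunit, had 0 counts on day 0 and 99.6 ± 24.3 CPM on day 30 (SD, n = 3), at least 761-fold higher against the floor. Of 6 RBFOX target genes, 5 rose and 1 fell (median 2.40). The calcium channel gene CACNA1C had the largest rise at 5.03 ± 0.18, and the actin regulator ENAH fell by 0.46. Of 7 PTBP target genes, 6 were tested, with 2 that rose, 3 that fell and 1 that did not pass (median −0.11). DLG4, which encodes the postsynaptic protein PSD-95 and holds a neuronal exon silenced by PTBP proteins, stood at 22.6, 16.7 and 13.5 CPM and then at 138, 115 and 88.3 CPM, and rose by 2.70 ± 0.21. FLNA, which encodes filamin, fell by 2.16 on the log2 scale to 167, 295 and 526 CPM on day 30, the order of the mesenchymal marker sums, whose part in this was not tested.

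**Figure D4:**
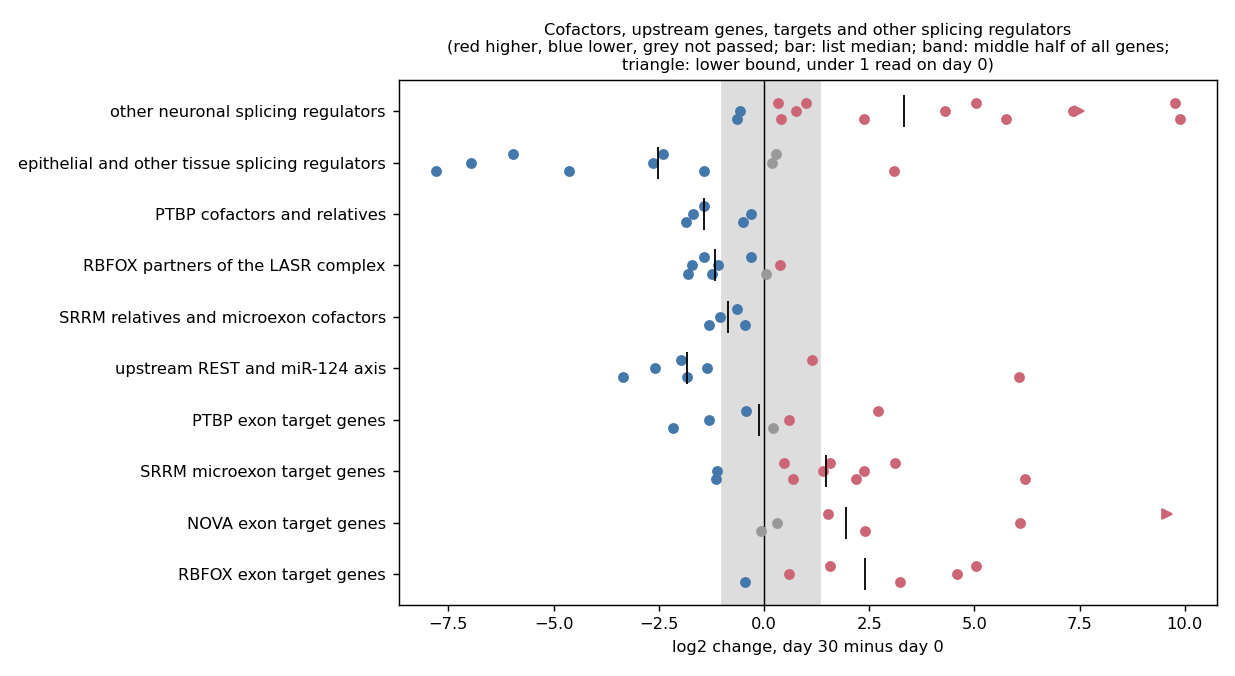
The log2 change from day 0 to day 30 of each tested gene of 10 lists of cofactors, upstream genes, target genes and other splicing regulators, with red for genes called higher, blue for lower and grey for not passed. Bars are list medians, the band is the middle of all tested genes, and triangles are lower bounds for genes with under 1 count on day 0.

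For each member the tested genes with the most similar profile over the 6 libraries were found by the root mean square difference of centred log2 CPM, with a prior count of 2 that sets the values of genes near 0. For SRRM4 these were RUNDC3B (0.075), ZNF385D (0.087) and NACAD (0.127), for SRRM3 RF01963 (0.039), PURG (0.069) and GRIN2D (0.077). NOVA1 was nearest to TMC2 (0.068), SYNJ1 (0.069) and LRRC43 (0.069), but TMC2 and LRRC43 were at 0 CPM on day 0, so that their distance rests on the prior count. NOVA2 was nearest to WHRN (0.088), ATP1B2 (0.09) and PCDHB4 (0.132). GRIN2D encodes an NMDA receptor subunit, SYNJ1 a phosphatase of synaptic vesicle recycling and ATP1B2 a sodium pump subunit. PTBP1 was nearest to AC068733.3 (0.086), MDN1 (0.088) and SNORD116-19 (0.103), PTBP2 to PLSCR3 (0.03), MUS81 (0.037) and CCDC88A (0.043), and PTBP3 to ARMT1 (0.057), RPL14 (0.073) and ZBTB2 (0.073). AC068733.3 was at 0.148 CPM on day 30, where the prior count also weighs on the distance. MDN1 is a ribosome assembly factor and RPL14 a ribosomal protein. RBFOX1 was nearest to TSPO (0.073), APBA3 (0.075) and CDAN1 (0.08), RBFOX2 to PDK2 (0.053), SBF1 (0.065) and TNPO1P1 (0.066), and RBFOX3 to AC002470.2 (0.048), TMEM63B (0.06) and MAGI2 (0.075). All these values come from the same 6 libraries, so a small distance mainly reflects a similar change between the days. Only some of the nearest genes are described here, and a link in function to the members was not tested.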

How the data were processed

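The members and all gene lists were chosen with earlier results of these data known, so no list is independent evidence. Total RNA was depleted of ribosomal RNA and made into libraries with a stranded TruSeq kit, per the labels' protocols. Per the submitters' processing notes, the tools include FastQC 0.11.9 and the build is hg38. Not given in the sources used here: aligner, counter, annotation and strand setting. The values deposited by the authors are expected counts per gene, a unit read from the values, of which 92.6% are whole. They were rounded for the tests.

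Counts were tested in R 4.3.3 with edgeR 4.0.16 (quasi-likelihood, TMM, filterByExpr with a minimum count of 10, 2-sided, Benjamini-Hochberg over 18040 genes, threshold 0.05) on day alone, with all 6 libraries in the fit. CPM are scaled by TMM library sizes. The SE of a log2 change is approximate, as its absolute value divided by the square root of the F statistic of the test. Lengths are unions of GENCODE 29 exons, which 94.3% of entries matched. Ratios of paralogs were compared by exact permutation with scipy 1.17.1. The tests were tested on simulated data. For edgeR, few genes changed there and all shared a common dispersion, whereas 76.6% of the tested genes were called here. That run therefore does not show how the test behaves in these data. Alternatives were DESeq2 1.42.0, other scalings, filters and rounding, a replicate block, each library left out, a pseudocount of 0.5 for the ratio of PTBP2 to PTBP1, and other lengths for shares and the order of levels. Named genes were the members, the largest called rise and fall of each list, and for each member the 3 genes of nearest profile. MATR3, MBNL1, KHDRBS3, CLTA, RBM20, HNRNPUL2, AGRN, NES, VIM, SOX2, HES1, PAX6, HES5, MIR124-1HG, NPY, AGRP, MYOD1, MYOG, MYH7, PTBP1P, AL079343.1 and the genes that overlap members were named after their values were seen. Motifs were chosen with the results known. Depth ranges are given above, and low counts limit precision for RBFOX1.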

Additional observations from a re-analysis of the deposited data

How the results depend on the processing

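All members but RBFOX1, 9 of 10, kept their direction and their call in 13 of 13 alternatives, and RBFOX1 was called in 0 of 13, with adjusted p-values of 0.189 to 0.535. Leaving out each library gave log2 changes of −3.04 to −2.89 for PTBP1, 0.42 to 0.52 for PTBP2, −1.50 to −1.17 for PTBP3, 3.48 to 3.62 for NOVA1, 2.99 to 3.68 for NOVA2 (the highest without replicate 1 of day 0), 2.42 to 2.71 for SRRM3 and 5.24 to 5.47 for SRRM4, a difference of 3.38 to 3.56 for the log2 ratio of PTBP2 to PTBP1, and 13135 to 14159 genes called. The direction turned in genes that did not pass in the first place: RBM20 was −0.14 without replicate 1 of day 0 (range −0.14 to 0.36 over the libraries left out), HNRNPUL2 −0.07 and −0.05 without replicate 2 of day 0 and of day 30 (range −0.07 to 0.14), and AGRN 0.01 with total counts only, 0.19 without replicate 1 of day 0 and 0.02 without replicate 1 of day 30 (range −0.28 to 0.19). The cause was not tested.

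Without division by exon length, the share of PTBP1 was 43.5% on day 0 and 12.7% on day 30, that of NOVA1 56.5% on day 30 and that of SRRM4 25.6% and 71.4%. With the length of the principal transcript, an alternative chosen after seeing the data, PTBP1 had 59.1% and 23.5%, NOVA1 60.7% on day 30, RBFOX2 28.6% and 35.2%, and SRRM4 12.8% and 51.6%. The other length is the cause by construction.

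With the replicate number as a block, 13336 genes were called against 13827 without it, and KHDRBS3 (edgeR adjusted p = 0.0733) and MATR3 (0.0596) lost their calls. KHDRBS3 also lost its call with DESeq2 (adjusted p = 0.101), with no filter (0.148) and in 5 of 6 fits that left out a library (0.0657 to 0.0937). Deviations of same-numbered libraries correlated at 0.075, −0.004 and −0.052, and those of differently numbered libraries at −0.134 to 0.137. Not every library was closest to its own number. With so few libraries, such values cannot show whether same-numbered libraries shared a culture or batch, which the labels do not state. MBNL1 lost its call without replicate 1 of day 0 (edgeR adjusted p = 0.162), replicate 3 of day 0 (0.0922), and replicates 2 and 3 of day 30 (0.104 and 0.0831). CLTA lost its call without replicate 3 of day 0 (0.0561) or of day 30 (0.0523). Depth limits RBFOX1 most, with 77 and 70 counts per day, though SRRM4 held fewer on day 0, at 64 counts.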

Other observations

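Among the 7 members called higher, replicate 1 was the highest of the day 0 libraries for 6. Over all 7186 genes called higher it was the highest for 44.3%. Without this library the log2 change of NOVA2 was 3.68.

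Most members are long genes. RBFOX1 spans 2473.5 kb, RBFOX3 426.8 kb and RBFOX2 289.7 kb, and 9 of 10 members exceed the median of 36.6 kb over the tested protein-coding genes, the exception being PTBP1 at 15.3 kb.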
